A study of Mus musculus with 28 samples.

Results

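The genes described here are 10 that endothelial cells express, most of them in nearly every vessel: Pecam1, Cdh5, Emcn, Esam, Cldn5, Egfl7, Eng, Ramp2, Ptprb and Tie1. They were chosen by name, with earlier results of these data known. They make up 10 of the 47643 gene rows in each count table, of which 17068 held at least 1 read in any library. Endothelial cells line blood and lymph vessels and are held together by adherens junctions built on VE-cadherin and by tight junctions built on claudins and JAM-family proteins. Surface glycoproteins, the Tie and endoglin receptors and the adrenomedullin receptor are part of the same identity programme, which transcription factors of the ETS family help to maintain. The thyroid is among the most densely vascularised endocrine glands, and its follicles are wrapped in fenestrated capillaries.

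The libraries came from H2B-GFP mice, in which a histone-bound GFP is diluted by cell division and kept by cells that divide rarely. The driver of the transgene and the number of animals behind a library are not given in the sources used here. Freshly sorted GFP+ and GFP− cells of the thyroid gland were sampled at 3 months (4 libraries per fraction), 6 months (4 per fraction) and 9 months (3 per fraction), and cells of the salivary gland at 9 months (3 per fraction), giving 28 libraries of the same mouse model in 8 groups. The months are those in the sample titles, which do not say whether they count the age of the mice or another time. Age stands for these months below. Nothing states that replicates were separate animals, and p-values therefore cover the spread among these libraries, which may be technical.

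Reads in genes ran from 507 to 209091 per library, and 6 libraries (4 GFP+ and 2 GFP−) held fewer than 10000. Levels are given as CPM, the reads of a gene divided by all reads in genes of that library and scaled to 1000000. The libraries were made from the 3′ end of polyadenylated RNA, so a transcript's length does not set its count. A gene with 0 reads may still have a level of up to 3 reads, which is 14.3 CPM in the deepest library and 5917 CPM in the shallowest. Pooled levels divide the summed reads of a group by its summed library sizes, with exact 95% Poisson intervals that cover counting error only. The glands matched their labels: Tg, which encodes thyroglobulin, reached 4998 CPM in pooled thyroid GFP− cells and 1917 CPM in their GFP+ counterparts, against 36.5 CPM and 0.0 CPM in the salivary fractions.

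Upstream sequence of 5 of the 10 genes (Egfl7, Eng, Emcn, Tie1 and Cldn5) was matched in RefSeq (GRCm38.p6), as 7 windows of 250 bases before an annotated start. Pecam1, Cdh5, Esam, Ramp2 and Ptprb were not matched. Windows of 4 genes are printed because these genes cover the range of behaviour in the thyroid libraries described below: Emcn had the largest fitted difference between the fractions and Eng the smallest of those tested, Egfl7 followed the level of the other genes most closely, and Cldn5 was nearly absent outside 1 library. Capitals mark the letters CAGGAA or CGGAAG on either strand, which contain the GGAA core that ETS factors recognise. The windows lie at chr3:137340828-137341077 (plus strand) for Emcn, chr2:26583615-26583864 (plus strand) for the middle of 3 starts of Egfl7, chr2:32646345-32646594 (plus strand) for Eng and chr16:18776597-18776846 (plus strand) for Cldn5.
Emcn: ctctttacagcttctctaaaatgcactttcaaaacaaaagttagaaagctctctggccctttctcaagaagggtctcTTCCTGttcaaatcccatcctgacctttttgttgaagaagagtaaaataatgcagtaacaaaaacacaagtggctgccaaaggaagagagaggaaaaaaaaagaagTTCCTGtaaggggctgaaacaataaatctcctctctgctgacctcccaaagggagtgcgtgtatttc
Egfl7: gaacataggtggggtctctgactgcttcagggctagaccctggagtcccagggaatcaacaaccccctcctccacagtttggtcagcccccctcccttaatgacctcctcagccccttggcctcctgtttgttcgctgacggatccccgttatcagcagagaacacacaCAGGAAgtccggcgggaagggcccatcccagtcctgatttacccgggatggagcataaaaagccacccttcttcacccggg
Eng: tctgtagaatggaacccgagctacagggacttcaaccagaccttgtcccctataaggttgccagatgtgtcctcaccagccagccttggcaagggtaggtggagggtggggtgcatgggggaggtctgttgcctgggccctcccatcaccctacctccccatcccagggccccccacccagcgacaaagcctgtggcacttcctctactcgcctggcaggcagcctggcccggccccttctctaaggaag
Cldn5: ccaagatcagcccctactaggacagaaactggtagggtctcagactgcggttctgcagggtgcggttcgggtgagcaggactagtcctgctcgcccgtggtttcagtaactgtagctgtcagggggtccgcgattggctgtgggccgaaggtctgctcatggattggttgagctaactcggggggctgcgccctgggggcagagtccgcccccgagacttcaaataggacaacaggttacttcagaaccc

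CAGGAA, searched on both strands, lay in 4 of the 7 windows, which belonged to Egfl7, Emcn and Tie1, against 25.7% of all 32851 RefSeq windows of this length. CGGAAG lay in the Tie1 window alone and in 13.6% of all windows. The Tie1 window overlaps an untranslated region in the GENCODE annotation. It was not printed for that reason but is counted here. The letters CCACCC, which Krüppel-like factors bind, lay in 3 windows, 1 each of Egfl7, Eng and Tie1, against 28.1% of all windows. AGATAA, which blood and endothelial zinc finger factors recognise, lay in 0 of the 7 windows and in 9.99% of all windows. ACAATG, which SOX factors recognise, lay in 0 of the 7 windows and in 10.7% of all windows. CAGGAA and CGGAAG both hold GGAA but differ in the base before it, so no position counts for both on the same strand. These matches describe the letters in the windows and nothing about binding.

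In thyroid, the 10 genes together were more abundant in the GFP− than in the GFP+ fraction. They held 2037 reads in 11 GFP− libraries, a pooled 2056 CPM (1968 to 2147), and 452 reads in 11 GFP+ libraries, a pooled 514 CPM (468 to 563). The ratio of pooled levels was 4.002 (95% interval 3.61 to 4.44). In bulk libraries of sorted cells, fewer endothelial cells and less of these RNAs per cell cannot be told apart.

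The summed level in the GFP− fraction was 3377, 3553, 2897 and 3640 CPM at 3 months, 1676, 413, 780 and 1369 CPM at 6 months, and 2549, 1614 and 1336 CPM at 9 months. In the GFP+ fraction it was 3201, 848, 805 and 1035 CPM at 3 months, 576, 681, 286 and 0.0 CPM at 6 months, and 261, 323 and 198 CPM at 9 months. At 9 months the fractions did not overlap. The values that crossed at 3 and 6 months belonged to libraries with few reads: the 3201 CPM of GFP+ replicate 1 at 3 months rests on 5 reads of 1562, and the 413 CPM of GFP− replicate 2 at 6 months on 2 reads of 4845.

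**Figure D1:**
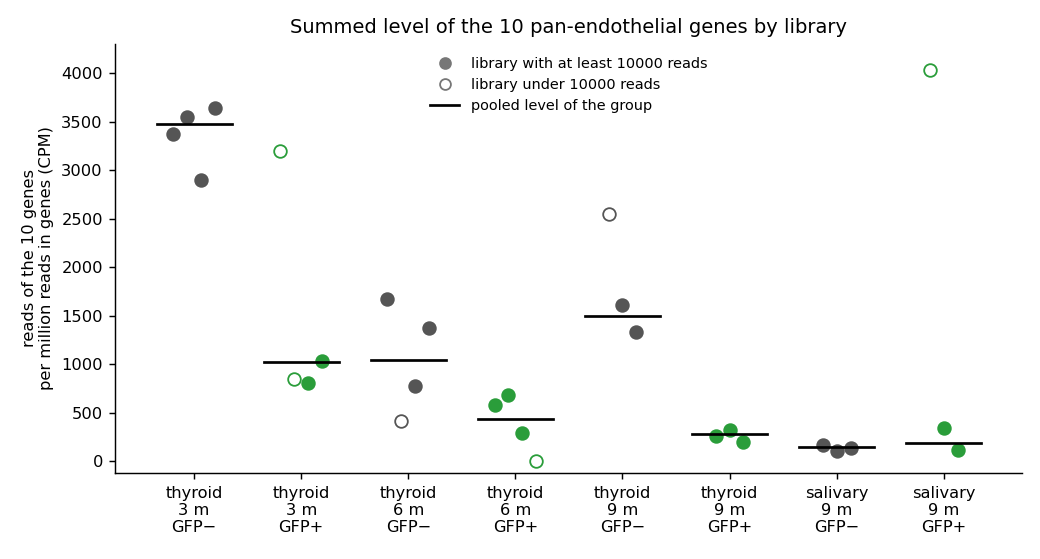
Summed level of the 10 genes in each library, in CPM, by gland, age and GFP fraction. Filled points are libraries with at least 10000 reads in genes, open points are shallower libraries and black lines are pooled levels. The filled GFP− points lie above the filled GFP+ points at every thyroid age, and the open points at 3201 and 4028 CPM rest on 5 and 4 reads.

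Whether single genes differed between the thyroid fractions was tested across all 1900 genes that passed the filter on low counts, with edgeR's quasi-likelihood test and Benjamini-Hochberg adjustment, as the mean of the differences at 3, 6 and 9 months. Of the 10 genes, 7 passed the filter and were tested, and Cldn5, Ramp2 and Tie1 had too few reads. All 7 tested genes were lower in GFP+ cells at an adjusted p below 0.05, where 8.79% of all tested genes were lower. The median log2 fold change was -2.30 for the 7 genes and -0.08 for all tested genes. A gene that passed the filter only through the fraction in which it is abundant had to differ, so the 7 do not stand for all 10. Because the 10 genes were chosen with earlier results known, the share of all tested genes is a description and no test of the set.

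Emcn encodes endomucin, a sialomucin of capillary and venous endothelium, and had the largest difference. Its level in GFP− libraries was 643, 1009, 822 and 808 CPM at 3 months, 570, 413, 187 and 407 CPM at 6 months, and 680, 347 and 223 CPM at 9 months. In GFP+ libraries it was 0.0, 0.0, 53.7 and 97.2 CPM at 3 months, 70.5, 118, 20.5 and 0.0 CPM at 6 months, and 30.7, 23.5 and 11.6 CPM at 9 months. The highest of the 11 GFP+ libraries lay below the lowest of the 11 GFP− libraries, but 3 GFP+ values were 0 reads in shallow libraries. There 1 read would be 640 and 170 CPM (replicates 1 and 2 at 3 months) and 1972 CPM (replicate 4 at 6 months). The share of all tested genes that separated in this way was not counted. The fitted log2 fold change was -3.44 ± 0.45 (SE; adjusted p 2.3e-12), and the pooled level was 9.99-fold lower in GFP+ cells (7.33 to 13.9).

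Pecam1 encodes PECAM-1 (CD31), an adhesion molecule of endothelial cell contacts that platelets and leukocytes also carry. In GFP− libraries its level was 504, 373, 358 and 590 CPM at 3 months, 0.0, 0.0, 105 and 104 CPM at 6 months, and 510, 196 and 223 CPM at 9 months. In GFP+ libraries it was 1280, 0.0, 53.7 and 177 CPM at 3 months, 70.5, 78.6, 51.1 and 0.0 CPM at 6 months, and 92.1, 35.2 and 23.3 CPM at 9 months. The fractions overlapped at 3 and 6 months and did not at 9 months. The value of 1280 CPM is 2 reads of the library with 1562 reads. The log2 fold change was -1.69 ± 0.41 (adjusted p 0.00048), and without the filter on low counts, with 16525 genes in the fit, the adjusted p was 0.060.

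Cdh5, Esam and Cldn5 are the other junction genes. Cdh5 encodes VE-cadherin, the adherens junction protein of endothelium, and ran from 0.0 to 391 CPM with a pooled level of 189.8 CPM (164 to 219) in GFP− and from 0.0 to 161 CPM with a pooled level of 39.8 CPM (27.7 to 55.3) in GFP+ cells. Its log2 fold change was -2.30 ± 0.45 (adjusted p 8.6e-06), or -3.36 without GFP+ replicate 3 at 9 months, which held all 4 Cdh5 reads of its group. Esam encodes an immunoglobulin-family adhesion molecule of endothelial tight junctions and platelets. Its pooled level was 240.2 CPM (211 to 273) in GFP− and 62.5 CPM (47.1 to 81.4) in GFP+ cells, and its log2 fold change -2.36 ± 0.45 (adjusted p 3.5e-06), or -3.35 without GFP+ replicate 2 at 9 months, which held all 4 Esam reads of its group.

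Cldn5 encodes claudin-5, the tight junction claudin of endothelium, and was nearly absent. It had 24 reads in all 28 libraries, 7 in thyroid GFP− and 16 in thyroid GFP+ cells, and 14 of these 16 were in GFP+ replicate 4 at 3 months, where its level was 80.0 CPM. The other 3 GFP+ libraries at 3 months held 0 reads. The pooled ratio of GFP+ to GFP− was 2.57 (1.002 to 7.40) and rests on that library.

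Egfl7 and Ptprb followed the sum closely. Egfl7 encodes a matrix protein that endothelial cells secrete, with a pooled level of 282 CPM (249 to 317) in GFP− and 50.01 CPM (36.3 to 67.1) in GFP+ cells and a log2 fold change of -2.37 ± 0.44 (adjusted p 2.3e-06). Ptprb encodes VE-PTP, the receptor phosphatase that acts on VE-cadherin and on the receptor Tie2, with pooled levels of 324 CPM (289.5 to 361) and 90.9 CPM (72.1 to 113) and a log2 fold change of -1.87 ± 0.40 (adjusted p 5.5e-05). Leaving out any single library moved neither value by more than 1.5-fold.

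The receptor genes are Eng, Tie1 and Ramp2. Eng encodes endoglin, a co-receptor for BMP and TGF-beta ligands that some stromal cells also express, and its pooled level was 142 CPM (119.8 to 168) in GFP− and 53.4 CPM (39.3 to 71.0) in GFP+ cells. Its log2 fold change of -1.51 ± 0.43 (adjusted p 0.0037) was the smallest of the 7. The adjusted p was 0.068 without GFP− replicate 2 at 9 months and 0.12 without the filter, and the log2 fold change was -3.18 without GFP+ replicate 4 at 3 months, which held all 14 Eng reads of its group.

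Tie1 encodes an orphan receptor tyrosine kinase that modulates Tie2 signalling. It had 69 reads in GFP− cells, a pooled 69.6 CPM (54.2 to 88.1), and 11 reads in GFP+ cells, a pooled 12.5 CPM (6.2 to 22.4). The pooled level was 5.57-fold lower in GFP+ cells (2.93 to 11.7). Without the filter its log2 fold change was -2.66 ± 0.64 (adjusted p 0.0040), and it also passed the filter and was lower in the fit without libraries under 10000 reads (-2.79 ± 0.70, adjusted p 0.0015), in which 8 of 8 tested genes of the 10 were lower.

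Ramp2 encodes the accessory protein that turns the calcitonin receptor-like receptor into an adrenomedullin receptor. Its level in GFP− libraries was 85.8, 24.5, 0.0 and 128 CPM at 3 months, 33.5, 0.0, 9.6 and 43.3 CPM at 6 months, and 0.0, 52.8 and 46.1 CPM at 9 months. In GFP+ libraries it was 0.0, 0.0, 0.0 and 103 CPM at 3 months, 70.5, 65.5, 30.7 and 0.0 CPM at 6 months, and 46.1, 47.0 and 46.5 CPM at 9 months. The fractions overlapped at every age. It had 43 reads in GFP− and 50 reads in GFP+ cells, a pooled ratio of GFP+ to GFP− of 1.31 (0.85 to 2.02). Without the filter its log2 fold change was 0.16, with a 95% interval from -0.86 to 1.17 (adjusted p 1.0). That the fold change of Ramp2 differs from those of the other genes was not tested.

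**Figure D2:**
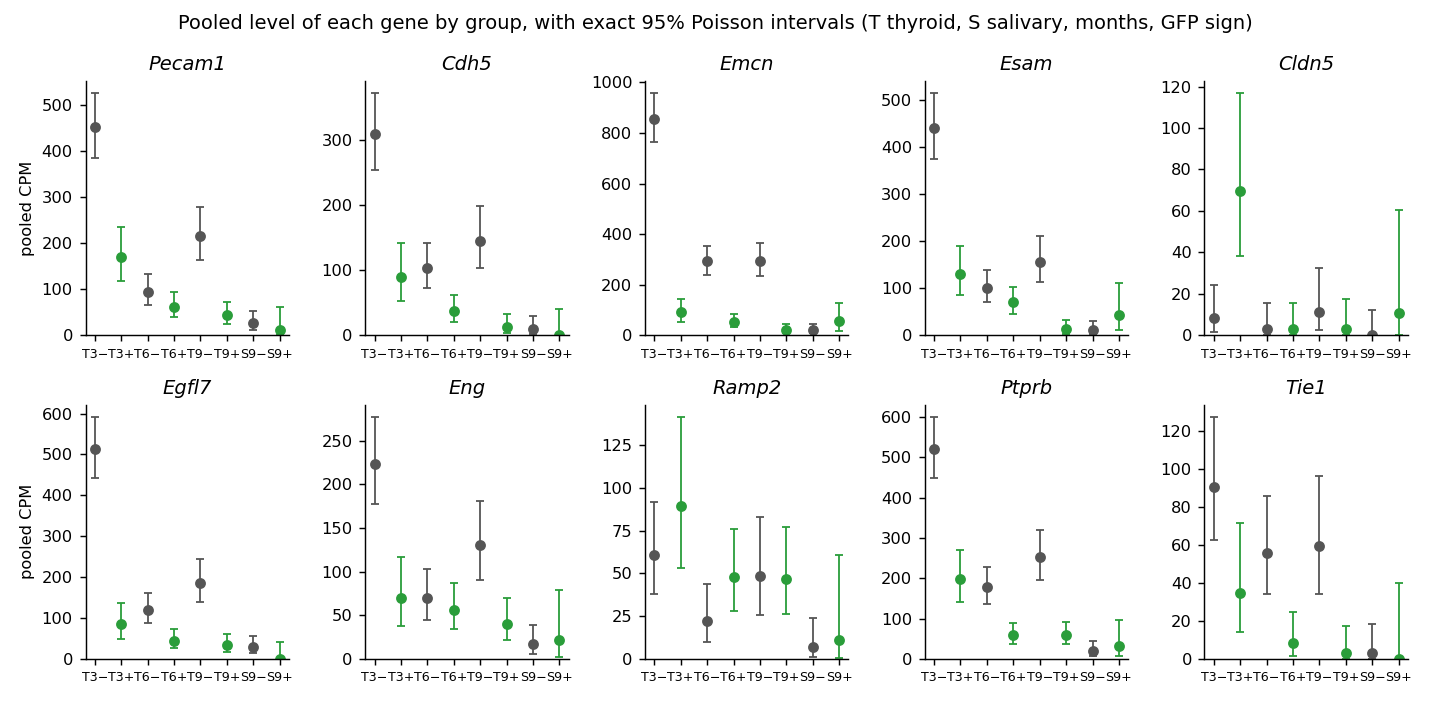
Pooled level of each of the 10 genes in CPM in the 8 groups, with exact 95% Poisson intervals; grey points are GFP− and green points GFP+ groups, and each panel starts at 0 with its own scale. Thyroid GFP− at 3 months is the highest group for 8 genes, from 857 CPM for Emcn to 91.0 CPM for Tie1. Cldn5 and Ramp2 are highest in GFP+ at 3 months, where replicate 4 holds all their reads (14 and 18). The mean CPM of Ramp2 at 3 months was 25.7 in GFP+ and 59.6 in GFP− libraries.

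At each age the same 7 genes could be tested. At 3 months 5 were lower in GFP+ cells (4.74% of all tested genes): Emcn (-3.78 ± 0.75, adjusted p 6.6e-05), Egfl7 (-2.75 ± 0.74, 0.0046), Esam (-2.32 ± 0.69, 0.012), Pecam1 (-2.04 ± 0.67, 0.029) and Cdh5 (-2.04 ± 0.71, 0.045). Cdh5 and Emcn did not overlap between the fractions, as was so for 6.26% of tested genes. Pecam1 lost its call without GFP− replicate 1 or 4 or GFP+ replicate 2 or 3 (adjusted p 0.056 to 0.095), and Cdh5 without GFP− replicate 1, 2 or 4 or GFP+ replicate 1, 2 or 4 (0.051 to 0.115). Without GFP+ replicate 4, which holds most reads of its group, the log2 fold change was -5.36 for Emcn, -2.97 for Esam, -2.93 for Pecam1 and -7.04 for Eng, whose 14 reads in its group all lay in that library. Ptprb (-1.62 ± 0.66, adjusted p 0.098) and Eng (-2.01 ± 0.74, 0.063) did not pass the test. The normalization factors of the thyroid fit ran from 0.574 to 10.7. On plain library totals the log2 ratios of pooled levels at 3 months were smaller than the fitted values. They were -3.26 for Emcn, -2.60 for Egfl7, -1.79 for Cdh5 and -1.77 for Esam. For Eng, Pecam1 and Ptprb they were -1.68, -1.42 and -1.39.

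At 6 months Emcn alone was lower (-2.72 ± 0.70, adjusted p 0.0040), where 1.84% of all tested genes were lower, and Emcn alone did not overlap (2.63% of tested genes). Without GFP+ replicate 3 its adjusted p was 0.0501, and without GFP+ replicate 2 its log2 fold change was -3.31. The other 6 log2 fold changes were -1.82 for Ptprb, -1.64 for Egfl7, -1.56 for Cdh5, -0.94 for Esam, -0.77 for Eng and -0.68 for Pecam1. Cdh5 passed without GFP+ replicate 2 (-2.96, adjusted p 0.047), and Ptprb without GFP− replicate 2 (-1.97, adjusted p 0.041).

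At 9 months 4 genes were lower (1.63% of all tested genes): Emcn (-3.82 ± 0.85, adjusted p 0.0013), Esam (-3.81 ± 0.91, 0.0037), Cdh5 (-3.30 ± 0.89, 0.013) and Egfl7 (-2.73 ± 0.81, 0.039). Pecam1 (-2.36, adjusted p 0.083), Ptprb (-2.16, 0.11) and Eng (-1.75, 0.38) did not pass. Pecam1, Emcn, Esam and Egfl7 did not overlap between the fractions (3.63% of tested genes). With 3 libraries per fraction each of these calls depended on single libraries. Emcn lost it without GFP− replicate 2 or any GFP+ replicate (adjusted p 0.079 to 0.147), Egfl7 without any of the 6 libraries (0.139 to 0.412), Esam without GFP− replicate 2 or 3 or GFP+ replicate 1 or 3 (0.066 to 0.151), and Cdh5 without GFP− replicate 2 or 3 or GFP+ replicate 1 or 2 (0.234 to 0.530). Without GFP+ replicate 2 the log2 fold change was -6.76 for Esam and -2.40 for Cdh5, and without GFP+ replicate 3 it was -6.50 for Cdh5.

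**Figure D3:**
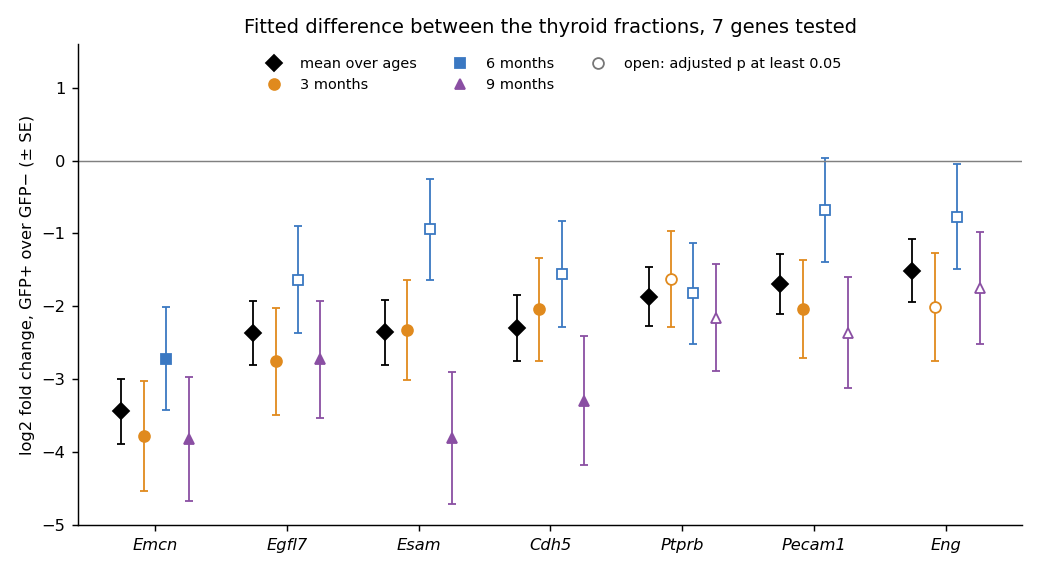
Fitted log2 fold change of GFP+ over GFP− thyroid cells with its standard error, for the 7 genes tested, as the mean over ages and at 3, 6 and 9 months. Filled symbols passed an adjusted p of 0.05; all 28 estimates lie below 0, and Emcn is filled at every age.

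Whether the difference between fractions changed with age was tested as an interaction over the 3 ages, and 0 of the 7 genes passed (0.158% of all tested genes; 1 of the 7, Esam, had an unadjusted p below 0.05, 0.043, and DESeq2 called 0). Within the GFP− fraction, 1 of the 7 genes passed edgeR's test over the ages, against 1.53% of all tested genes. The unadjusted p of this test was 0.00061 for Pecam1, 0.0027 for Esam and 0.0031 for Egfl7. It was 0.018 for Ptprb, 0.022 for Emcn, 0.046 for Cdh5 and 0.22 for Eng. Fitted log2 fold changes from 3 to 9 months lay between -1.54 (Emcn) and -0.70 (Eng). The gene that passed was Pecam1, with log2 fold changes of -2.35 from 3 to 6 months and -1.15 from 3 to 9 months (adjusted p 0.047). Its call was lost without any 1 of 9 of the 11 libraries, namely 3-month replicates 1, 2 and 4, 6-month replicates 1, 3 and 4 and 9-month replicates 1, 2 and 3 (adjusted p 0.057 to 0.246). Without libraries under 10000 reads 4 genes passed: Pecam1 (adjusted p 0.011), Egfl7 (0.011), Esam (0.022) and Emcn (0.035), with log2 fold changes from 3 to 9 months between -1.64 (Egfl7) and -1.18 (Pecam1).

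The pooled sum in GFP− cells was 3476 CPM (3287 to 3673) at 3 months, 1038 CPM (936 to 1149) at 6 months and 1499.8 CPM (1357 to 1654) at 9 months. For Pecam1, Egfl7, Esam, Cdh5, Ptprb and Eng the order of pooled levels was 3, 9 and then 6 months, and the intervals of the latter pair overlapped for all of these but Pecam1. Emcn had 292.3 CPM (239 to 354) at 6 months and 294.01 CPM (233 to 366) at 9 months. Within the GFP+ fraction the pooled sum was 1025 CPM (889 to 1174), 439 CPM (373 to 514) and 277 CPM (222 to 341). There 0 of the 7 genes passed the test over ages (1.58% of all tested genes; 3 of the 7 had an unadjusted p below 0.05, and DESeq2 called 0). At 3 months 181 of the 206 GFP+ reads of these genes came from replicate 4.

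The make-up of the 10-gene signal is given as shares of the reads of the 10 genes, with intervals that cover counting error only. Emcn was 24.3% of them in GFP− cells (exact 95% binomial interval 22.5 to 26.2) and 9.73% in GFP+ cells (7.16 to 12.8). Ramp2 was 2.11% (1.53 to 2.83) and 11.1% (8.32 to 14.3). Eng, at 6.92% (5.86 to 8.11) and 10.4% (7.74 to 13.6), had intervals that overlapped, as did Ptprb (15.8% and 17.7%), Esam (11.7% and 12.2%) and Pecam1 (12.6% and 15.5%).

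By library, among the 17 thyroid libraries with at least 10000 reads, the Emcn share was lowest at 16.7%, median 23.9% and highest at 34.0% in 9 GFP− libraries, and 5.88%, 8.33% and 17.3% in 8 GFP+ libraries. The groups overlapped by 1 library on each side. The Ramp2 share was lowest at 0.0%, median 2.54% and highest at 3.52% in GFP− and 0.0%, 11.5% and 23.5% in GFP+ libraries. The GFP+ library at 0.0% was replicate 3 at 3 months, which had 15 reads of the 10 genes, and the other 7 lay above all GFP− libraries.

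**Figure D4:**
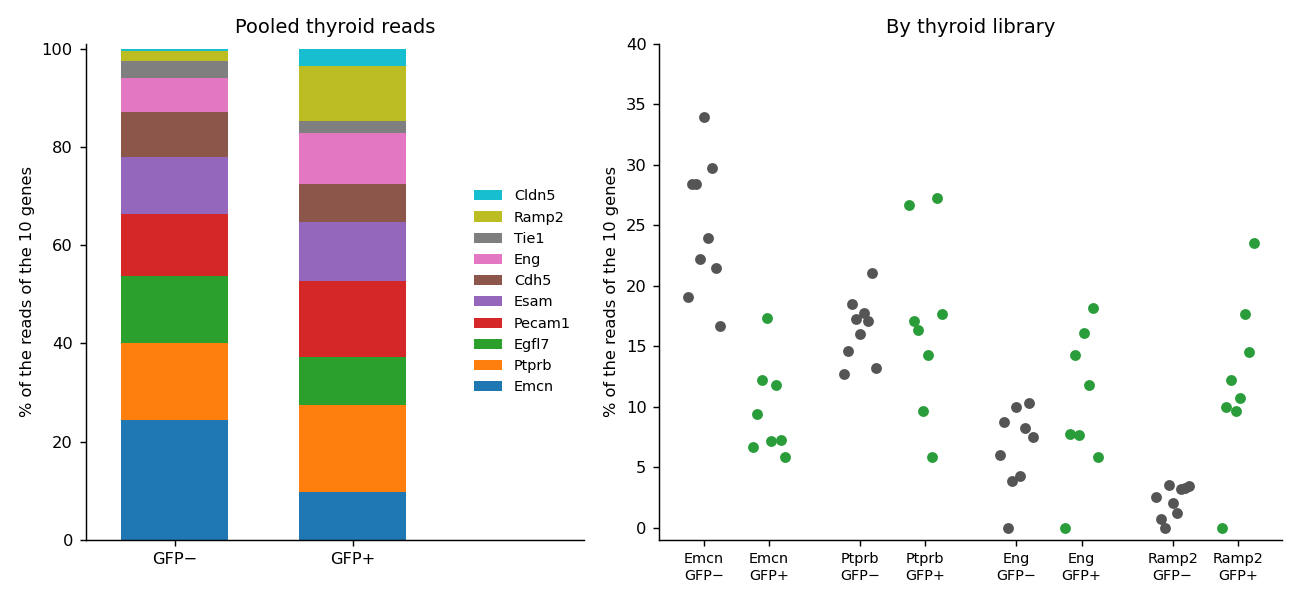
Left, share of each gene among the pooled reads of the 10 genes in thyroid GFP− (2037 reads) and GFP+ (452 reads) cells. Right, the shares of Emcn, Ptprb, Eng and Ramp2 in each of 17 thyroid libraries with at least 10000 reads (grey GFP−, green GFP+); the Emcn share has a median of 23.9% in GFP− and 8.33% in GFP+ libraries, the Ramp2 share 2.54% and 11.5%.

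Across these 17 libraries, on log2(CPM + 10), the correlation of each gene with the sum of the other 9 was 0.95 for Egfl7, 0.94 for Emcn, 0.93 for Ptprb, 0.91 for Esam, 0.80 for Cdh5, 0.71 for Tie1, 0.60 for Pecam1, 0.41 for Eng, 0.23 for Cldn5 and -0.032 for Ramp2 (Pearson's r). These values describe the libraries, which fall into 2 fractions and share depth with each gene, and carry no test. The 8 genes most alike to the summed level were Flt1 (0.95), Kdr (0.93), Podxl (0.92), Igfbp7 (0.91), Col13a1 (0.90), Car4 (0.90), Ehd4 (0.89) and Btnl9 (0.89). Flt1 and Kdr encode VEGF receptors.

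Taken gene by gene, the most alike were Btnl9 and Col13a1 for Emcn (0.95 and 0.95), Flt1 and Emcn for Egfl7 (0.95 and 0.92), Kdr and Podxl for Ptprb (0.94 and 0.93), Ptprb and Emcn for Esam (0.93 and 0.87), Kctd12b and Depp1 for Cdh5 (0.88 and 0.87), Adgrl2 and Sema7a for Pecam1 (0.84 and 0.83) and Xiap and Grrp1 for Tie1 (0.80 and 0.76). For Eng they were Nfe2l2 and Zfp644 (0.88 and 0.85) and for Ramp2 Peli1 and Ano6 (0.83 and 0.83). For Cldn5 they were the secretory genes Dcpp3 and Dcpp2 (0.83 and 0.79), near-identical copies whose counts may be split between them. GFP+ replicate 4 at 3 months, with 14 of the Cldn5 reads, held 151 of 211 Dcpp3 reads and 22 of 33 Dcpp2 reads of the 17 libraries.

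Other genes of the same programme were taken as lists, which were also chosen with earlier results of these data known. In the mean over ages 8.79% of all tested genes were lower and 11.4% higher, which describes the lists and does not test them. Of 18 further endothelial surface genes, 12 were tested and 9 were lower in GFP+ cells, with 0 higher and a median log2 fold change of -1.93. The largest calls by adjusted p were Podxl, which encodes the anti-adhesive sialomucin podocalyxin (-3.15 ± 0.43), Adgrl4 (-3.71 ± 0.52), Mmrn2 (-3.89 ± 0.63) and Cd93 (-2.17 ± 0.42). Of 22 junction partners, 11 were tested, of which Rasip1 (-2.50 ± 0.49), Jam3 (-1.61 ± 0.53) and F11r (-1.03 ± 0.37) were lower and Pard3 (1.56 ± 0.55) was higher. Rasip1 is a Rap1 effector of endothelial cells, and Jam3 and F11r encode JAM-C and JAM-A. The catenin genes Ctnnb1 (-0.40 ± 0.38) and Ctnna1 (0.04 ± 0.37), whose proteins anchor cadherins in many cell types, did not pass.

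Of 17 endothelial transcription factor genes, 8 were tested and 4 were lower: Epas1 (-1.76 ± 0.38), which encodes HIF-2 alpha, Mef2c (-1.91 ± 0.42), Ets1 (-1.57 ± 0.44) and the ETS family gene Elk3 (-1.29 ± 0.44). Of 18 partners of Tie1, endoglin and Ramp2, 9 were tested, of which Ramp3 was lower (-4.48 ± 0.67, adjusted p 2.1e-09) and Tgfbr3 higher (1.005 ± 0.38, 0.041). Ramp3, the other adrenomedullin receptor accessory protein, had 109 reads in GFP− and 5 in GFP+ cells, beside the 43 and 50 reads of Ramp2, and the difference between these genes was not tested. Their shared receptor gene Calcrl (-1.12 ± 0.52, adjusted p 0.13) and ligand gene Adm (1.09 ± 0.48, 0.10) did not pass. Of 11 fenestrated capillary and VEGF response genes, 9 were tested and 9 were lower, with a median log2 fold change of -4.08, led by Esm1 (-6.72 ± 0.62), Btnl9 (-6.40 ± 0.63), Igfbp3 (-4.53 ± 0.49) and Kdr (-4.85 ± 0.52). Their pooled sum was 11.6-fold lower in GFP+ cells, beside 4.002-fold for the 10 genes. The other lists had smaller pooled ratios of GFP− to GFP+. These were 1.89 for the surface genes, 1.23 for the junction partners and 1.23 for the transcription factor genes. For the partners of Tie1, endoglin and Ramp2 the ratio was 0.89, so their sum was higher in GFP+ cells. All these folds mix the ages in unequal parts. The difference between these lists was not tested. As for the 10 genes, a listed gene that passed the filter only through GFP− libraries had to be lower. Esm1 had 579 reads in GFP− and 7 in GFP+ cells, and Btnl9 428 and 4. Being tested and being lower are therefore not independent, and the tested genes do not stand for their lists.

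Markers of other cell types also differed between the fractions in the mean over ages, where 8.79% of all tested genes were lower and 11.4% higher. Of 7 fibroblast genes such as Col1a1 and Dcn, 7 were higher in GFP+ cells, and their summed level ran from 1073 to 8594 CPM in GFP− and from 0.0 to 17872 CPM in GFP+ libraries (pooled 3144 and 14432 CPM). Of 8 pericyte and smooth muscle genes, 4 were tested and 2 were higher (pooled sums 416 and 1245 CPM). Of 5 erythroid genes, 4 were tested and 4 were lower, with sums from 358 to 14439 CPM in GFP− and from 0.0 to 1739 CPM in GFP+ libraries. At 3, 6 and 9 months the median log2 fold change was 2.26, 2.38 and 1.38 for the fibroblast genes. It was 3.02, 2.15 and -0.36 for the pericyte and smooth muscle genes and -3.62, -2.97 and -1.69 for the erythroid genes. At 9 months 0 genes of these 3 lists were called. In the interaction with age 1 pericyte and smooth muscle gene was called (0.158% of all tested genes). The C cell genes (3 tested, 3 lower) and parathyroid genes (2 tested, 2 lower) also differed. Of these, 2 C cell genes and 0 parathyroid genes were still called lower at 9 months, where 1.63% of all tested genes were lower. The part of these cell type markers in the results on the 10 genes was not tested. Platelet and leukocyte genes bear on Pecam1 and Esam. The 7 platelet genes had 11 reads in GFP− and 7 reads in GFP+ cells (pooled sums 11.1 and 7.96 CPM, at most 28.7 and 170 CPM in a library), with 0 reads of Pf4. The 9 leukocyte genes had 22 reads in GFP− and 44 in GFP+ cells (pooled sums 22.2 and 50.01 CPM), with 0 reads of Ptprc. Their highest libraries were replicate 4 of each fraction at 3 months, at 218 CPM (17 reads) in GFP− and 251 CPM (44 reads) in GFP+ cells, and these reads were all of Lyz2, which encodes a lysozyme. The part of these in the results on Pecam1 and Esam was not tested.

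In salivary gland the 10 genes were scarce in both fractions at 9 months. They had 43 reads in GFP− cells, a pooled 143 CPM (103 to 192), and 17 reads in GFP+ cells, a pooled 185 CPM (108 to 295.8), a ratio of GFP+ to GFP− of 1.29 (0.69 to 2.32). The 3 GFP− libraries had sums of 170, 111 and 138 CPM. The 3 GFP+ libraries had 4028, 339 and 114 CPM, and the fractions overlapped. The 4028 CPM is 4 reads, each of Esam, in replicate 1, a library of 993 reads.

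The fit at 9 months tested 974 genes, among them Pecam1, Emcn, Esam and Egfl7. Between the salivary fractions edgeR called 0 of the 4 (0.0% of all tested genes), with 0 at an unadjusted p below 0.05, and DESeq2 called 0. In simulated data for this comparison 2.47% of the genes changed 4-fold that passed the filter were recovered, so this comparison recovers few differences of this size. Egfl7 had 26.1, 55.4 and 26.5 CPM in GFP− and 0 reads in the 3 GFP+ libraries, which was below without overlap, as were 20.1% of tested genes. The interval around its pooled level of 0 reads in GFP+ cells reached 40.1 CPM. The other 6 genes were not tested: Cdh5 had 3 reads in GFP− and 0 in GFP+ cells, Cldn5 0 and 1, Eng 5 and 2, Ramp2 2 and 1, Ptprb 6 and 3, and Tie1 1 and 0.

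Between glands, the pooled sum of GFP− cells at 9 months was 10.5-fold higher in thyroid than in salivary gland (7.66 to 14.8), and the lowest thyroid library, 1336 CPM, lay above the highest salivary library, 170 CPM. Emcn was higher in thyroid GFP− cells (2.23 ± 0.81, adjusted p 0.045; 9.86% of all tested genes were higher). Its call was lost without thyroid replicate 2 or 3 or any salivary replicate (adjusted p 0.107 to 0.267), and its log2 fold change was 3.19 without salivary replicate 3. Esam (2.27 ± 0.98, adjusted p 0.11), Pecam1 (1.31 ± 0.79, 0.32) and Egfl7 (1.03 ± 0.79, 0.48) did not pass. These values depend on the scaling between glands: on plain library totals the log2 ratio of pooled levels was 3.88 for Emcn, 3.97 for Esam, 3.02 for Pecam1 and 2.64 for Egfl7, each larger than the fitted value, and the normalization factors of the fit ran from 0.232 to 7.11. The fold of the sum rests on plain library totals.

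In GFP+ cells the pooled sum was 1.499-fold that of salivary gland (0.89 to 2.69). Esam was called lower in thyroid (-3.68 ± 1.30, adjusted p 0.039; 5.03% of all tested genes were lower), on the 4 reads of the salivary library with 993 reads. Without that library its log2 fold change was 2.68 (adjusted p 0.75), and its adjusted p was 0.051 to 0.113 without thyroid replicate 1 or 3 or salivary replicate 2 or 3. Without thyroid replicate 2 its log2 fold change was -6.24, and without salivary replicate 3 it was -4.59. Emcn (-3.03 ± 1.15, adjusted p 0.055) did not pass. On plain library totals the log2 ratio of pooled levels was -1.80 for Esam, -1.32 for Emcn and 2.003 for Pecam1, against a fitted 0.14 for Pecam1, so the ratio of the sums, also on plain totals, gives no settled order of the glands. Whether the GFP difference itself differed between glands was tested as an interaction, and edgeR called 0 of 4 genes (0.0% of all tested genes; 2 at an unadjusted p below 0.05), while DESeq2 called Emcn (adjusted p 0.049). The median log2 fold change of all tested genes was 1.15 between glands in GFP+ cells and -0.89 between the salivary fractions.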

How the data were processed

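Gene counts were taken as the authors deposited them, 1 table per library, for 28 libraries of sorted mouse cells. Per the labels' protocols, RNA was isolated on columns with DNase treatment and made into 3′ mRNA sequencing libraries. Per the submitters' processing notes, bcl2fastq was used and mm9 is the build named, both without versions. Aligner, counting program and strand setting are not given in the sources used here, so reads of overlapping antisense genes cannot be told apart. Groups are those the labels give. The 5 summary rows of each table stayed out of library sizes and tests: reads outside genes were 13.3 to 85.8% of all reads per library and ambiguous reads at most 0.426%. Ribosomal RNA rows held 25.1 to 63.8% of reads in genes and were kept. Gene identifiers were paired with GENCODE vM21 symbols for 47224 of 47643 rows.

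Depth was 507 to 209091 reads in genes per library. Genes were tested by robust quasi-likelihood in edgeR 4.0.16 under R 4.3.3 (TMM factors; filterByExpr at its default minimum of 10 and total of 15), with Benjamini-Hochberg adjusted p below 0.05 as a call, in 1 fit of the 22 thyroid libraries (6 groups, 1900 genes, biological coefficient of variation 0.466) and 1 fit of the 12 libraries at 9 months (4 groups, 974 genes, 0.480). All p-values are adjusted over all tested genes, and log2 fold changes are fitted values with standard errors. Pooled ratios carry exact conditional binomial 95% intervals. Intervals and limits of 3 reads cover counting error only.

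The 10 genes and the gene lists were chosen with earlier results of these data known. The 10 genes are the named genes; in comparisons where a gene was not tested or not called, the text may give only its reads, its pooled level or the count of calls. Of the pathway lists up to 4 called genes are named by adjusted p in the mean over ages, and the catenin, Calcrl and Adm values outside this rule were picked for their roles after values were seen, as were Nr2f2 and Pdpn. One list of gland markers is not reported here. Alike genes are the 8 with the highest Pearson's r to the summed level, and 2 per gene, over thyroid libraries of at least 10000 reads. Upstream windows and motif counts came from RefSeq sequences (GRCm38.p6), with no coordinates of the deposited files used.

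Other settings tried were DESeq2 1.42.0, DESeq2 size factors within edgeR, no filter, a stricter filter (20 counts in 50% of libraries), a replicate block, a single fit of all 28 libraries, fits of the compared groups alone, no libraries under 10000 reads, no ribosomal RNA rows, and leaving out each library. Simulated data had 200 changed genes and the same spread for every gene. Among changed genes that passed the filter, the thyroid comparison over ages recovered 25.9% of 2-fold and 100% of 4-fold changes (1591 genes in the fit). The salivary comparison recovered 0 and 2.47% (808 genes). Changed genes that the filter dropped are not counted, so these shares do not cover sparse genes.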

Additional observations from a re-analysis of the deposited data

Results flagged for a closer look

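In 44 sets of values (each gene and the sum in each group of 4 libraries) the highest or lowest library was compared with its neighbours, and 9 stood apart from the rest of their group. Chance alone flags about 1 in 20 groups of measured values, but in 6 of the 9 sets the other 3 libraries all had 0 reads, so that a single library with reads stands apart by construction and that rate does not apply. In GFP+ cells at 3 months, Pecam1 reached 1280 CPM in replicate 1 (2 reads) and the sum of the 10 genes 3201 CPM in the same library (5 reads). In replicate 4 of that group, the deepest, Cldn5 was at 80.0 CPM (14 reads), Eng at 80.0 CPM (14 reads) and Ramp2 at 103 CPM (18 reads), with 0 reads of each in the other 3 libraries. In GFP+ cells at 6 months, replicate 2 had Cdh5 at 118 CPM (9 reads), Tie1 at 39.3 CPM (3 reads) and Cldn5 at 13.1 CPM (1 read). In GFP− cells at 6 months, Cldn5 stood at 4.78 CPM in replicate 3 on 1 read, and the other libraries had 0.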

How the results depend on the processing

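In the mean over ages, 6 to 8 of the 10 genes were lower under every alternative that could be fitted, and from 6 to 8 when 1 library was left out. Without the filter 6 passed (Pecam1 and Eng lost, Tie1 gained). With the replicate block 6 passed, Eng being lost (adjusted p 0.091). Replicate numbers were not taken as pairs: 5 of 14 same-number pairs had residual correlations above 0.1 (-0.089 to 0.352), and 8 of 14 GFP+ libraries correlated best with their own number. The 6 pairs at 9 months were all above 0 (0.044 to 0.187). The block left 1 gene called at 3 months, 0 at 6 and 0 at 9 months, and 0 in the interactions and in salivary gland. It could not be fitted for age within a fraction or between glands. The stricter filter left 0 of the 10 genes to test.

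At 3 months, 5 called genes became 1 without the filter and 3 with only the groups compared (3 to 6 leaving out 1 library). At 6 months, 1 became 0 without the filter and 2 without libraries under 10000 reads (0 to 2). At 9 months, 4 became 0 without the filter, 6 without libraries under 10000 reads and 3 with DESeq2, with its size factors and with all 28 libraries (0 to 3). For age in GFP− cells, 1 became 0 with DESeq2, without the filter and with all 28 libraries, 3 with only the groups compared and 4 without libraries under 10000 reads (0 to 1). Between glands in GFP− cells, 1 became 0 with DESeq2, with its size factors, without the filter and with all 28 libraries, and 2 with only the groups compared (0 to 1). In GFP+ cells, 1 became 2 with DESeq2 and 0 without the filter, with all 28 libraries and without libraries under 10000 reads (0 to 1). The interaction with gland had 1 with DESeq2 in place of 0 (0 to 0), and the interaction with age, age in GFP+ cells and the salivary fractions had 0 throughout. The cause of these changes was not tested.

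Among tests of a single contrast, directions changed in comparisons with salivary libraries and in none of the thyroid fraction comparisons. The tests over 3 ages have no single direction, and leaving out 1 library turned the sign of the change from 3 to 9 months in the interaction with age for Pecam1, Ptprb, Emcn, Eng and Egfl7 and in GFP+ cells for Eng. Without libraries under 10000 reads, the log2 fold change of Esam was -4.33 between salivary fractions, 2.80 between glands in GFP+ cells and 0.62 in the interaction with gland, and without salivary GFP+ replicate 1 it was -4.20, 2.68 and 0.29. Leaving out 1 library gave Esam ranges of -4.20 to 3.07, -6.24 to 2.68 and -8.63 to 0.29 in these comparisons. That of Pecam1 between glands in GFP+ cells was -0.012 without libraries under 10000 reads, -0.31 without thyroid GFP+ replicate 1 and -0.70 without salivary GFP+ replicate 3, and 3.18 in the interaction without salivary GFP+ replicate 2. Leaving out 1 library gave Pecam1 ranges of -0.70 to 4.52 between glands and -2.06 to 3.18 in the interaction. Egfl7 in the interaction was -0.54 with DESeq2. With DESeq2's size factors in edgeR, the median log2 fold change of all tested genes moved most in the interaction with age, from 0.29 to 0.41.

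Depth limits these genes: Cldn5 had 24 reads, Tie1 81 and Ramp2 96 in all 28 libraries, and 6 libraries held fewer than 10000 reads in genes. Where 9-month groups of 3 libraries were compared, no call on these genes held in every fit that left out 1 library.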

Other observations

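Markers of single vessel types were sparse in thyroid. The 7 arterial genes had 138 reads in GFP− cells (pooled 139 CPM) and 81 in GFP+ cells (92.1 CPM), and none was tested. Among them Gja4 had 3 reads in GFP− and 0 in GFP+ cells, and Gja5 had 1 and 0. The 5 venous genes had 86 reads (86.8 CPM) and 175 reads (199 CPM), and the 7 lymphatic genes 76 reads (76.7 CPM) and 144 reads (164 CPM). The pooled ratio of GFP+ to GFP− was thus 2.29 for the venous and 2.13 for the lymphatic genes, beside 0.25 for the 10 pan-endothelial genes. These ratios mix the ages in unequal parts. A single gene of each list could be tested in the mean over ages: Nr2f2 (1.38 ± 0.42, adjusted p 0.0078) and Pdpn (1.75 ± 0.51, adjusted p 0.0050) were higher in GFP+ cells in edgeR's test. Both are also expressed by fibroblasts, and the lymphatic marker Ccl21a had 0 reads in both fractions.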
